A study of Mus musculus with 26 samples.

Results

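Among fibroblasts pooled from the skin of Prrx-Cre mice, 5431 of 22900 cells formed a group marked by Wnt5a, Grem1, Rspo1 and Aldh3a1. They were chosen by a fixed rule from 33086 cell barcodes in 2 single-cell libraries, called tube 1 and tube 2. Barcodes with at least 500 genes and at most 10% of their unique molecular identifiers (UMIs, each standing for 1 captured RNA molecule) in mitochondrial genes were kept, which left 23153. Of these, 22900 had at least 1 UMI of the collagen gene Col1a1 and 0 UMIs of the leukocyte gene Ptprc. Members are those with 2 or more UMIs summed over the 4 markers, and the other 17469 cells are called the other fibroblasts. Because UMIs of these 6 genes chose the cells, their levels are given as a description and were not tested.

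The study isolated fibroblasts by FACS from skin of the Prrx-Cre strain and compared a Prrx1+ population (PPF) with a Prrx1- population (PNF). For single cells, the series' text names 8 samples, from PPF and PNF, from caudal and ventral skin, and from wounded and unwounded skin, which were hashtagged and pooled into the 2 tubes, whereas the label of each tube names postnatal ventral skin alone. No label ties a tube or a tag to a lineage, site or wound, so no condition is compared in the single cells, and the tubes are not replicates of a condition. Bulk RNA covered ventral skin in 24 libraries and 8 groups. In order of age (E16.5, E18.5, P1, P30), PPF had 2, 2, 2 and 6 of them, and PNF had 2, 4, 4 and 2. Each group comes from the Prrx-Cre strain, with no further allele, reporter or treatment stated in the labels. Prrx1 acts in early limb bud and part of the craniofacial mesenchyme, and a Cre driven by it marks a history of expression rather than present expression. The sort gate and the wound's age are not given in the sources used here.

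Wnt5a is a secreted WNT ligand that acts mostly through the receptors Ror1, Ror2, Ryk and Ptk7 and less through beta-catenin. Rspo1, an R-spondin, binds Lgr4, Lgr5 or Lgr6 and keeps Frizzled receptors at the cell surface, which raises the response to WNT ligands. Grem1 is a secreted antagonist that binds BMP ligands, and Aldh3a1 is an aldehyde dehydrogenase that oxidises lipid aldehydes and is a classical target of the aryl hydrocarbon receptor. In skin, WNT and BMP signals between dermis and epidermis set hair follicle formation and its cycle, and the dermal papilla, the upper (papillary) dermis and the contractile dermal sheath around the follicle are fibroblast compartments with part in this exchange.

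Promoter letters are shown for a pair of genes that were higher in members, picked after the matches were known, because among the genes searched that were higher their windows hold the most matches of the core known for each pathway. Sp5 is a direct target of WNT and beta-catenin signalling, and Ahrr is a target and repressor of the aryl hydrocarbon receptor. Each line gives the 250 bases before the start of the gene on its own strand, from RefSeq on GRCm38.p6 (mm10). Capitals in Sp5 mark CTTTGA, the core bound by TCF and LEF factors, and capitals in Ahrr mark GCGTG, the core of the xenobiotic response element.
Sp5, chr2:70474673-70474922, plus strand: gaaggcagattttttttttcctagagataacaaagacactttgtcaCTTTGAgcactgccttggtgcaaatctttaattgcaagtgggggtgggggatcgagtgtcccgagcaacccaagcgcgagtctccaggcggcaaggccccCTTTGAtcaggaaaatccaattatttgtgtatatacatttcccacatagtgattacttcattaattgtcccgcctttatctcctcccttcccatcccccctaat
Ahrr, chr13:74292332-74292581, minus strand: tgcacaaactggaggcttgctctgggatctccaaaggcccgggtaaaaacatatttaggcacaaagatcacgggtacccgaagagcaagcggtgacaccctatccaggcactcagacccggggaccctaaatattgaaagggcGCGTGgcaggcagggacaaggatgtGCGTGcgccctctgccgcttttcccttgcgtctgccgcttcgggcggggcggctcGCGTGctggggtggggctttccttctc
Both strands were searched. The Sp5 window held CTTTGA at 2 places, whose first bases lie at -204 and -104 from the start, and 0 matches of GCGTG. The Ahrr window held GCGTG at 3 places, at -107, -82 and -27, and 0 matches of CTTTGA. Of 32851 promoters of this length, 13.8% held CTTTGA and 28.2% held GCGTG. The windows of Grem1 and Rspo1 held 0 matches of either core, and that of the WNT feedback inhibitor Nkd2, which was higher in members, held 0 of CTTTGA and 1 of GCGTG. The window of the WNT target Axin2, also higher, held 0 of either core, and the 2 windows of Igfbp2 held 0 of CTTTGA, with 2 of GCGTG in one. Of genes that did not pass as higher, Cyp1b1 and Tiparp held 1 of GCGTG each, Nqo1 held 0 of either core, and 1 of the 4 windows of Lef1 held 2 of CTTTGA. A match is a run of letters and was not tested as a binding site.

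Members made up 20.4% of eligible cells in tube 1 (3711 of 18172, exact 95% binomial interval 19.8 to 21.0%) and 36.4% in tube 2 (1720 of 4728, 35.0 to 37.8%). Intervals cover counting error only. The share moved with depth. In tube 2 it was 15.1% among cells with 1000 to 2000 UMIs and 51.2% among cells with 8000 or more, and in tube 1 it was 18.55% and 25%. The median cell had 2827 UMIs among members and 2709 among the other fibroblasts in tube 1, and 5694.5 and 3806 in tube 2. With every cell thinned to 2000 UMIs, and 5057 and 507 shallower kept cells left out, the share was 13.1% in tube 1 (1737 of 13257) and 18.6% in tube 2 (790 of 4245). The tubes shared 42 barcodes, of which 32 were kept in both and 1 was a member in both.

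At the threshold, 3815 eligible cells in tube 1 and 1056 in tube 2 had exactly 1 marker UMI and stayed outside, and 1731 and 557 had exactly 2 and were members. At 5 or more marker UMIs stood 635 and 668 cells. In tube 1, 1114 members had UMIs of 1 marker, 1891 of 2, 608 of 3 and 98 of all 4, and in tube 2 the counts were 352, 792, 413 and 163. Aldh3a1 was the marker most often seen in tube 1, with a UMI in 66.8% of members, ahead of Wnt5a (49.3%), Rspo1 (41.4%) and Grem1 (34.2%). In tube 2, Aldh3a1 (62.3%) and Grem1 (62.2%) were nearly level, and Rspo1 (49.2%) and Wnt5a (48.8%) followed.

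Summed over cells, Wnt5a (chromosome 14, 28504750 to 28527448) stood at 234.7 CPM (the UMIs of a gene, scaled to 1e6 UMIs in the class) in members and 23.3 CPM in the other fibroblasts of tube 1, and at 130.1 and 13.4 CPM in tube 2. Grem1 stood at 222 and 10.1 CPM in tube 1, and 346 and 20.6 CPM in tube 2. Rspo1 stood at 175 and 22.1 CPM, and then 119 and 15.5 CPM. Aldh3a1 stood at 386 and 31.4 CPM, and then 216 and 21.6 CPM. The rule sets these gaps.

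Whether the 4 markers fall in the same cells was examined with each marker taken out of the choice. Cells were chosen by 2 or more UMIs of the other 3 markers, and the marker left out was then read in them. Each of the 4 was more frequent there than in the remaining eligible cells of the same tube. Wnt5a had a UMI in 32.8% (31.0 to 34.5%) of 2800 cells chosen by the other markers against 12.6% of 15372 remaining cells in tube 1, and in 40.4% (37.9 to 42.9%) against 13.6% in tube 2. Grem1 was seen in 21.3% against 6.98% in tube 1 and 48.3% against 22.2% in tube 2. Rspo1 was seen in 26.9% against 11.2%, and in 39.6% against 15.3%. Aldh3a1 was seen in 43.0% against 18.3%, and in 50.7% against 21.2%.

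**Figure D1:**
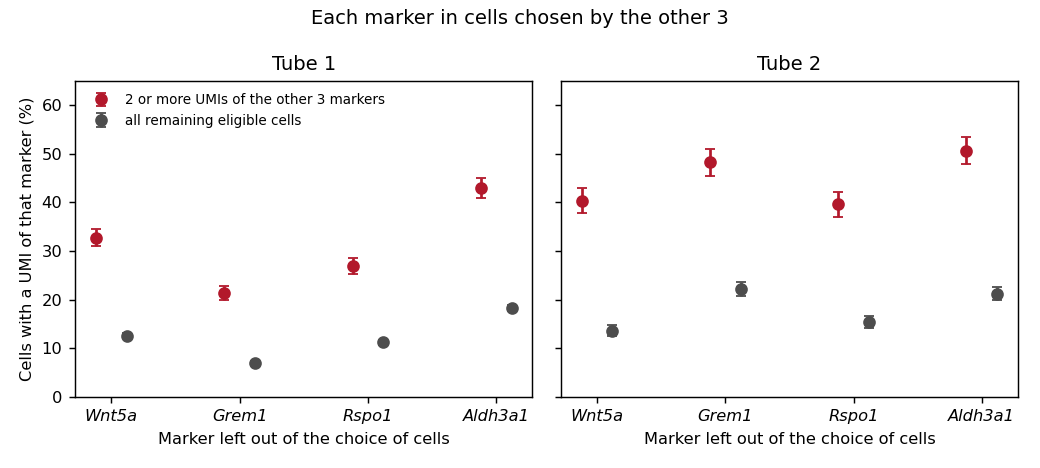
Share of cells with a UMI of each marker (y axis, %, with exact 95% binomial intervals) in cells chosen by the other 3 markers (red) and in all remaining eligible cells (grey), per tube. The red points lie above the grey points for all 4 markers in both tubes, for example 43.0% against 18.3% for Aldh3a1 in tube 1.

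As levels, the marker left out was 2.97-fold (Wnt5a), 3.36-fold (Grem1), 2.50-fold (Rspo1) and 2.58-fold (Aldh3a1) higher in the chosen cells of tube 1, and 3.15-, 2.61-, 2.43- and 2.98-fold higher in tube 2. In edgeR's fit with that marker left out of the rule, the log2 fold change was 1.65 ± 0.07 (SE) for Wnt5a, 1.58 ± 0.08 for Grem1, 1.33 ± 0.07 for Rspo1 and 1.49 ± 0.06 for Aldh3a1. The 4 markers were put together with results of these cells known. Their going together was set in advance and is not independent evidence, so no p-value is given. Chosen cells were also deeper, for Wnt5a with medians of 2839 against 2713 UMIs in tube 1 and 5746 against 3893 UMIs in tube 2. Thinned to 2000 UMIs, each pair of markers fell in the same cell 1.34 to 2.49 times as often as the product of their shares.

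Free RNA can put UMIs into any droplet. Kept cells with a UMI of Ptprc, 123 in tube 1 and 50 in tube 2, hold a leukocyte transcript and should lack the markers if they are leukocytes, yet 93.5% and 100% of them also had Col1a1. They had a UMI of Wnt5a in 7.32% and 12%, of Grem1 in 10.6% and 20%, of Rspo1 in 4.88% and 16% and of Aldh3a1 in 10.6% and 12%, at median depths of 1945 and 2683 UMIs. Every share in the cells chosen by the other 3 markers was above these. In the remaining fibroblasts, Grem1 in tube 1 (6.98%) and Rspo1 in tube 2 (15.3%) were below them. Those 2 shares of Ptprc cells rest on 13 and 8 cells. Their exact binomial intervals, 5.7 to 17.4% and 7.2 to 29.1%, include the shares of the remaining fibroblasts. With Col1a1 in nearly all of them, the Ptprc cells cannot be taken as leukocytes and give no clean level of free RNA. Whether a UMI of these 2 markers in the remaining fibroblasts is expression or free RNA therefore cannot be decided. Median depths of the chosen cells were 2808 to 3037 UMIs in tube 1 and 5703 to 6009 UMIs in tube 2.

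Beyond the markers, genes higher in members included the growth factor binder Igfbp2, the WNT feedback inhibitor Nkd2 and the ectonucleotidases Entpd1 and Nt5e, and genes lower in members included Cygb, Lpl and Fzd4. Counts were summed over the cells of each class in each tube, and the sums were compared within tube by edgeR's quasi-likelihood test. Of 12872 genes tested, 868 were higher in members (6.74%) and 606 lower (4.71%) at an adjusted p under 0.05. Of these, 866 and 604 went the same way in both tubes, and 264 and 213 by at least 1.5-fold in each. The 4 sums leave 1 residual degree of freedom, so the p-values rest on a spread shared over genes and speak of these pools of cells, not of animals. With DESeq2 231 genes were higher and 153 lower, and without the tube as a term 0 passed in edgeR in either direction (712 at an unadjusted p under 0.05).

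Igfbp2 (chromosome 1, 72824503 to 72852474), which binds insulin-like growth factors, led the 12 genes named by rule in this direction. It stood at 502 CPM in members and 134 CPM in others of tube 1, and at 506 and 115 CPM in tube 2, a log2 fold change of 2.05 ± 0.07 (adjusted p = 1.15e-13). Members of both tubes were level with each other and well above the others. Gldn (chromosome 9, 54286486 to 54341786), a secreted olfactomedin-domain protein best known from the nodes of Ranvier, stood at 47.2 and 12.1 CPM in tube 1 and 65.4 and 15.6 CPM in tube 2 (2.04 ± 0.08, adjusted p = 8.02e-13). Stmn2, a tubulin-binding protein known from neurons, stood at 101 and 37.9 CPM and then 67.9 and 20.1 CPM (1.58 ± 0.08). Both enzymes that strip phosphates from extracellular ATP in turn, Entpd1 (CD39) and Nt5e (CD73), were higher. Entpd1 stood at 149 and 63.5 CPM in tube 1 and 124 and 56.4 CPM in tube 2, and Nt5e at 67.8 and 28.7 CPM and then 54.5 and 23.5 CPM.

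The WNT feedback inhibitor Nkd2 (51.7 against 19.0 CPM and 76.4 against 27.4 CPM) and the WNT antagonist Dkk2 (207 against 95.6 CPM and 197 against 89.3 CPM) were also among the 12 named genes. The others were the secreted phospholipase Pla2g2e, the lymphatic growth factor cofactor Ccbe1, the membrane protein Tmem132c, and Fam180a and Fam105a, with log2 fold changes of 1.14 to 1.45. In all 12 genes both sums of members lay above both sums of the other fibroblasts. A total of 35 genes met the naming rule in this direction and 33 in the other.

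**Figure D2:**
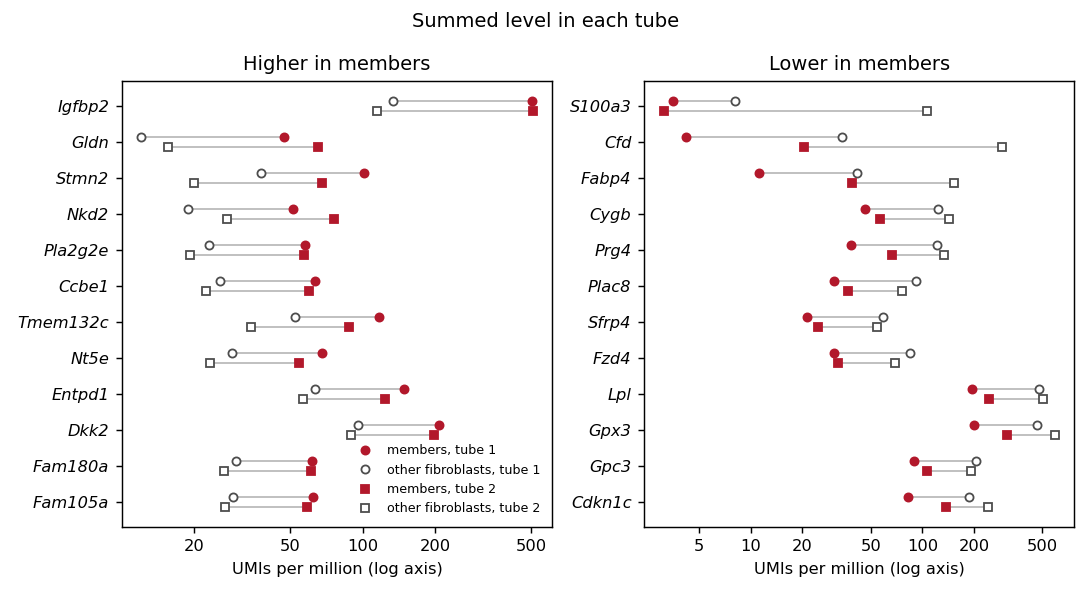
Summed level of the 12 named genes in each direction (x axis, CPM, log axis), members filled in red and other fibroblasts open, circles for tube 1 and squares for tube 2. Igfbp2 stands at 502 and 506 CPM in members and at 134 and 115 CPM in the others.

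Cygb, a globin of fibroblasts, stood at 46.4 CPM in members and 123 CPM in others of tube 1, and 56.9 and 143 CPM in tube 2 (log2 fold change -1.33 ± 0.07, adjusted p = 2.59e-11). The triglyceride lipase Lpl stood at 194 and 475 CPM and then 244 and 503 CPM (-1.14 ± 0.07). The secreted peroxidase Gpx3 stood at 198 and 463 CPM and then 311 and 591 CPM, and the glypican Gpc3 at 89.6 and 204 CPM and then 107 and 193 CPM. The WNT receptor Fzd4 (30.6 against 85.1 CPM and 32.1 against 69.4 CPM), the WNT antagonist Sfrp4 (21.4 against 58.7 CPM and 24.5 against 54.1 CPM), the joint lubricant Prg4, the cell cycle inhibitor Cdkn1c and Plac8 went the same way. In these 9 genes both sums of members lay below both sums of the others.

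The remaining 3 named genes are given beside the markers of other cells. The adipocyte products Cfd and Fabp4 were lower in members, Cfd at 4.21 against 34.0 CPM in tube 1 and 20.3 against 290 CPM in tube 2, and Fabp4 at 11.1 against 41.4 CPM and 38.8 against 153 CPM. The hair and skin gene S100a3 stood at 3.54 and 8.07 CPM in tube 1 and 3.11 and 107 CPM in tube 2. With cells thinned to equal depth, 0.740% of members and 0.605% of others in tube 1 had a UMI of S100a3. In tube 2 the shares were 0.607% and 1.00%, a far smaller gap than in the summed level. Of the adipocyte list 6 of 7 tested genes were lower, of the keratinocyte list 8 of 10, of the Schwann list 4 of 7, of the melanocyte list 2 of 4 and of the leukocyte list 3 of 10, and no tested gene of these 5 lists was higher. With DESeq2 the lower counts were 5, 6, 0, 2 and 2. The summed adipocyte list was 29.8 against 99.2 CPM in tube 1 and 84.2 against 563 CPM in tube 2, and the keratinocyte list 65.3 against 83.5 CPM and 48.8 against 132 CPM. Among the listed genes, the adipocyte gene Cidec was at 0 in members of tube 1, as were the Schwann and melanocyte gene Sox10, the melanocyte genes Tyr and Tyrp1 and the endothelial gene Cdh5. Members of tube 1 held 11874731 UMIs and the others 43888868, so a rare gene reaches 0 sooner in members. In members of tube 2 Cidec, Sox10, Tyrp1 and Cdh5 had UMIs, and Tyr was at 0. Of 5 tested endothelial genes, Plvap was higher (18.9 against 11.1 CPM and 14.1 against 7.82 CPM) and Tek lower (2.11 against 9.41 CPM and 2.49 against 6.81 CPM). The summed endothelial list was near level, at 25.1 against 27.3 CPM in tube 1 and 23.8 against 24.2 CPM in tube 2. Of 3 tested skeletal muscle genes the intermediate filament Des, which smooth muscle shares, was higher (27.3 against 7.41 CPM and 32.1 against 10.9 CPM), and the summed list stood at 30.2 against 13.4 CPM and 35.95 against 15.2 CPM. Of the pericyte and smooth muscle list, 3 were higher (Des, Myh11 and Ndufa4l2) and 4 lower (Rgs5, Cspg4, Higd1b and Notch3), with summed levels of 563 against 375 CPM and 521 against 364 CPM. With DESeq2 the same list had 3 higher and 0 lower.

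The test was repeated without cells that held markers of other types. With all cells that held a UMI of 23 defining markers of other types left out (27.2% of members and 27.7% of others in tube 1, 46.8% and 44.1% in tube 2), 506 genes were higher and 333 lower, and 485 and 317 of them were among the 868 and 606. S100a3 then no longer differed (log2 fold change 0.03, adjusted p = 0.976), and in DESeq2 it did not pass either (adjusted p = 0.519). Cfd is one of the 23 markers and cannot be read there. The other 22 named genes kept their direction at an adjusted p of at most 0.00021. A wider removal took every cell with 2 or more UMIs over the keratinocyte, endothelial, pericyte, Schwann, melanocyte, leukocyte and skeletal muscle lists. Such cells were more frequent among members (64.7% against 51.0% of others in tube 1, 79.9% against 66.1% in tube 2), and on the pericyte and smooth muscle list alone 44.1% of members and 25.7% of others in tube 1 had 2 or more UMIs. In the 1311 and 346 members left, 272 of 10826 tested genes were higher and 156 lower. S100a3 again did not pass (-0.09, adjusted p = 0.979), and the other 23 named genes kept their direction at an adjusted p of at most 0.000299. The adipocyte list was not part of this removal, so it cannot speak to the adipocyte products Cfd and Fabp4. Calls of the lists below that were lost in this removal are named at the end of the lists.

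Members kept the profile of fibroblasts. Of the 12 general fibroblast genes, 5 were higher (Lum, Dcn, Col1a2, Twist2 and Col3a1) and 0 lower. Pdgfra stood at 248 and 275 CPM in tube 1 and 298 and 312 CPM in tube 2 (adjusted p = 0.582). Prrx1, the homeobox gene that names the lineages, stood at 606 CPM in members and 615 CPM in others of tube 1, and at 562 and 558 CPM in tube 2 (log2 fold change 0.03 ± 0.06, adjusted p = 0.870).

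Ligands and their partners were taken next. Of 12 tested WNT ligands and R-spondins other than the markers, 4 were higher and 1 lower. The R-spondins Rspo3 (14.4 against 5.65 CPM and 21.3 against 6.34 CPM, log2 fold change 1.56 ± 0.13, adjusted p = 5.11e-08) and Rspo4 (7.33 against 2.30 CPM and 3.11 against 0.809 CPM, 1.77 ± 0.25) were higher, as were Wls, the carrier that brings WNT proteins to the cell surface (266 against 207 CPM and 197 against 141 CPM), and the ligand Wnt11. The ligand Wnt2 was lower (4.13 against 10.9 CPM and 2.04 against 7.08 CPM, -1.51), but not without cells holding other-type markers (-0.76, adjusted p = 0.341). With DESeq2, 3 of the 12 were higher and 1 lower. The list's median log2 fold change was 0.21, against -0.0026 over all genes.

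Of 17 WNT receptors, 3 were higher and 4 lower. The 3 higher genes, Ptk7, Ror1 and Ror2, encode receptors of the Wnt5a branch. Ptk7 stood at 42.4 against 28.1 CPM in tube 1 and 30.7 against 16.4 CPM in tube 2 (log2 fold change 0.74 ± 0.09), Ror1 at 24.2 against 16.0 CPM and then 18.1 against 12.5 CPM, and Ror2 at 28.3 against 23.1 CPM and then 26.5 against 19.95 CPM. The 4 lower genes were the Frizzled receptors Fzd4 and Fzd7 and the R-spondin receptors Lgr4 and Lgr5. Lgr5 stood at 59.0 against 93.4 CPM and then 52.7 against 94.3 CPM (-0.71 ± 0.07, adjusted p = 2.39e-07), and Lgr4 at 15.9 against 28.4 CPM and then 17.0 against 24.5 CPM. The list's median was -0.15. With DESeq2, 1 (Ptk7) was higher and 2 were lower, and Ror1 and Ror2 did not pass (adjusted p = 0.194 and 0.710). With depth-matched comparison cells 2 were higher and 4 lower.

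Of 10 WNT antagonists tested, 6 were higher and 3 lower. Dkk2 and Kremen1, which take the co-receptors Lrp5 and Lrp6 from the surface, were higher, as were Sostdc1, Wif1, Notum and Frzb. Sostdc1, which binds both WNT co-receptors and BMPs, stood at 5.05 against 1.16 CPM and then 10.48 against 1.35 CPM (2.51 ± 0.25). Notum, which removes the lipid from WNT proteins, was near the limit of detection at 1.26 against 0.159 CPM and 2.22 against 0.472 CPM. Of the secreted Frizzled-related proteins, Sfrp1, Sfrp2 and Sfrp4 were lower, while Frzb, of the same family, was higher at low levels (3.37 against 1.62 CPM and 2.75 against 1.42 CPM). Sfrp2 stood at 92.0 against 167 CPM and 57.3 against 82.8 CPM, and without cells holding other-type markers it did not pass (log2 fold change -0.31, adjusted p = 0.283, from -0.68). With DESeq2, 3 of the 10 were higher and 3 lower.

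Of the 11 WNT target genes, all of which were tested, 9 were higher and 0 lower, and the list's median log2 fold change was 0.72. Sp5, whose promoter is printed above, stood at 15.3 CPM in members and 4.76 CPM in others of tube 1, and at 31.6 and 10.1 CPM in tube 2 (1.70 ± 0.11, adjusted p = 1.47e-09). Axin2, a scaffold of the complex that breaks down beta-catenin, stood at 24.4 and 10.2 CPM and then 42.8 and 25.2 CPM (1.03 ± 0.10). Tcf7, a TCF factor, stood at 14.1 and 5.45 CPM and then 11.1 and 4.04 CPM. Apcdd1 and Nkd1, both feedback inhibitors, Ccnd1, Twist1 and Twist2 were the others. Myc and Lef1 did not pass, and Lef1 was scarce in every sum (0.387 to 1.42 CPM). With DESeq2, 8 of the 11 were higher and 0 lower.

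**Figure D3:**
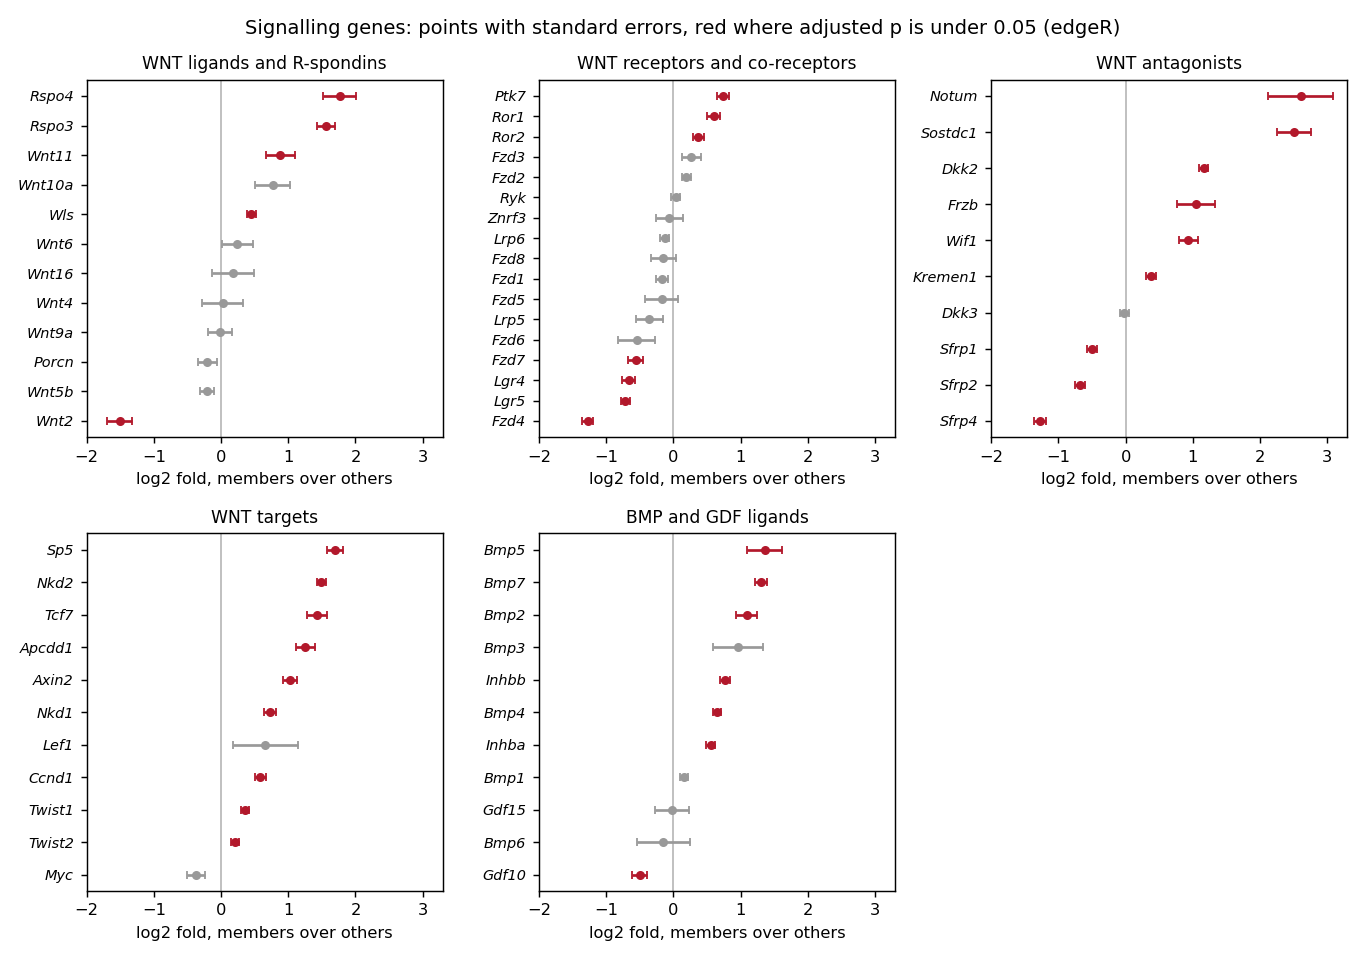
Log2 fold change of members over other fibroblasts (x axis) with its standard error from edgeR for the tested genes of 5 lists, red where the adjusted p is under 0.05. All WNT targets but Myc lie to the right of 0, and Fzd4, Lgr5 and the Sfrp genes to the left.

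Grem1 binds BMP ligands, which were read next. Of 11 BMP and GDF ligands tested, 6 were higher and 1 lower, with a list median of 0.65. Bmp7 stood at 28.9 against 11.5 CPM in tube 1 and 33.7 against 14.7 CPM in tube 2 (1.30 ± 0.09, adjusted p = 2.83e-09). Bmp4, a product of the dermal papilla, stood at 69.7 against 46.4 CPM and then 71.6 against 45.6 CPM. The activin subunits Inhba and Inhbb, Bmp2 and Bmp5 were also higher, and Gdf10 was lower. Among BMP antagonists other than Grem1, Nbl1 was higher, at 614 against 363 CPM and then 590 against 378 CPM, as were Twsg1, Fst and Fstl3. Bmper, Chrdl1 and Fstl1 were lower. Of 14 BMP receptors and targets, 1 was higher (Id1, 14.3 against 11.1 CPM and 13.8 against 10.3 CPM) and 1 lower (Acvr2a), near the background shares, and with DESeq2 0 of them passed.

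Around Aldh3a1, 2 lists were read. Of 15 genes of aldehyde dehydrogenases and retinoid metabolism, 6 were higher and 3 lower, with a median of 0.19. The retinoic acid-degrading enzyme Cyp26b1 stood at 663 against 341 CPM and then 724 against 380 CPM (0.98 ± 0.06, adjusted p = 8.81e-10), and the retinoic acid carrier Crabp1 at 107 against 71.7 CPM and then 139 against 98.8 CPM. The retinol carrier Rbp4 was lower (29.98 against 65.5 CPM and 49.8 against 82.8 CPM). Aldh1a1, Aldh1a2, Aldh2 and Rarg were higher by log2 fold changes of 0.20 to 0.83. Of 13 xenobiotic and oxidative stress genes, 2 were higher and 2 lower. Ahrr, whose promoter is printed above, stood at 16.9 against 4.94 CPM and then 25.3 against 6.0 CPM, a log2 fold change of 1.94 ± 0.13. Other genes known to follow the aryl hydrocarbon receptor are given as values, and activity of the receptor was not tested. Aldh3a1, itself such a target, helped to choose the cells and cannot be weighed. Cyp1b1 was lower (68.4 against 124 CPM and 64.98 against 98.4 CPM), and Tiparp stood at 37.6 against 50.2 CPM and 45.5 against 43.1 CPM without passing the test.

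Of 16 genes of FGF, PDGF, EGF and hedgehog signalling, 2 were higher (Ereg and Pdgfc) and 4 lower. Among the latter, Gli1 (7.66 against 16.7 CPM and 8.97 against 14.6 CPM) and Ptch1 (27.2 against 46.1 CPM and 26.9 against 34.7 CPM) are targets of hedgehog signalling, as is Hhip, and Igf1 is a growth factor. Without cells holding other-type markers Ptch1 went from -0.55 to -0.11 (adjusted p = 0.927) and Hhip did not pass (adjusted p = 0.610), while Gli1 stood at -1.34 (adjusted p = 0.000662). With DESeq2, 0 of the 16 were higher and 1 lower.

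Lists of skin compartments were read in the same test. Of 14 papillary fibroblast genes, 11 were higher and 1 lower (median 0.56), among them the anchoring fibril collagen Col7a1 (57.9 against 32.8 CPM and 50.2 against 24.7 CPM), Col23a1 and Lrig1. Of 18 reticular and fascia genes, 2 were higher and 9 lower (median -0.18), Mgp at 265 against 536 CPM and 458 against 882 CPM. Of 14 dermal papilla genes, 7 were higher and 1 lower. Of 10 dermal sheath genes, 5 were higher and 2 lower. In the splits by marker given below, their summed level with Grem1 alone was 1008 against 382 CPM and then 1567 against 484 CPM. It was 399 and 477 CPM with Wnt5a alone, and below the others in both tubes in every other split. Of 16 contractile genes, 7 were higher and 4 lower (2 and 3 with DESeq2). Their summed level was lower in members, at 2386 against 3338 CPM and then 2606 against 2906 CPM. The papillary list shares Axin2, Apcdd1, Ptk7, Crabp1 and Inhba with the signalling lists above, so the counts are not separate. Of 24 matrix genes, 6 were higher and 5 lower, of 23 inflammatory genes 3 and 5, of 10 tendon and joint-lining genes 0 and 3, of 18 cell cycle genes 0 and 2 and of 17 dissociation response genes 0 and 1. With DESeq2 the higher and lower counts were 8 and 1 for papillary, 1 and 6 for reticular and fascia, 5 and 0 for papilla, 1 and 0 for sheath, 4 and 5 for matrix, 2 and 2 for inflammatory and 0 and 1 for tendon genes, and 0 for the cell cycle and dissociation lists. For the signalling lists not yet given, they were 5 and 0 for BMP ligands, 2 and 1 for retinoid and 1 and 1 for xenobiotic genes.

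The lists were also read after the wider removal of cells with other-type markers, in which fewer genes were tested. Of the WNT targets, 7 of 10 tested were higher and 0 lower, and Twist1 and Twist2 no longer passed. Of the BMP ligands, 5 of 8 were higher, Gdf10 no longer passed and Bmp5 was not tested. Of the papillary genes, 10 of 13 were higher and 1 lower, and of the papilla genes 6 of 12 were higher. Of the reticular and fascia genes, 0 of 16 were higher and 6 lower. Of 8 tested dermal sheath genes 0 were higher and 0 lower: Acta2, Tagln, Mylk, Mef2c, Itga5 and Tnmd no longer passed, and Myh11 was not tested. Myh11 and Des are on the pericyte and smooth muscle list, so the removal took out cells rich in them by design. Whether members hold sheath genes cannot be read there. Of the retinoid list, 2 of 13 were higher and 1 lower, and Aldh1a1, Aldh1a2, Aldh2, Rarg and Dhrs3 were among those that no longer passed. Of the receptors, Ptk7 was still higher (0.65, adjusted p = 0.00829), while Fzd7, Ror1 and Ror2 did not pass, nor did the ligand Wnt11, the BMP genes Id1 and Acvr2a, the antagonists Chrdl1, Fstl1 and Fstl3, or Pdgfc, and Notum was not tested. Of the general fibroblast list 2 of 12 were higher, and Col1a2, Col3a1 and Twist2 no longer passed.

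Levels followed the number of marker UMIs, which is a description since depth and the rule both enter it. Igfbp2 stood at 103, 220.5, 356, 413, 621 and 873 CPM in cells of tube 1 with 0, 1, 2, 3, 4 and 5 or more marker UMIs, and at 112, 121, 235, 316, 309.8 and 787 CPM in tube 2. Cygb went the other way, from 138 CPM at 0 to 28.4 CPM at 5 or more in tube 1 and from 150 to 37.8 CPM in tube 2. The summed level of Cfd dropped at the threshold, from 289 CPM at 1 marker UMI to 25.4 CPM at 2 in tube 2. The share of cells with a UMI of Cfd differed far less between members and others. With cells thinned to equal depth, it was 4.79% of members and 6.41% of others in tube 2, and 0.846% and 1.02% in tube 1. The drop therefore cannot be read as a step in the share of cells that hold Cfd. Prrx1 stayed between 551 and 618 CPM over all 12 sums.

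Members were split by the marker that reached 2 UMIs, and the splits are described by their values without a test. Cells with Wnt5a alone at 2 or more numbered 428 in tube 1 and 109 in tube 2, with Grem1 alone 397 and 332, with Rspo1 alone 302 and 126, and with Aldh3a1 alone 983 and 259. More than 1 marker reached 2 in 434 and 458, and 1167 and 436 were members through single UMIs of different markers.

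Members with Grem1 alone carried contractile genes. The smooth muscle myosin Myh11 stood at 102 CPM in them against 5.38 CPM in the other fibroblasts of tube 1, and at 156 against 14.0 CPM in tube 2. Calponin, Cnn1, stood at 29.5 against 1.37 CPM and then 25.1 against 2.56 CPM, and smooth muscle actin, Acta2, at 369 against 85.1 CPM and then 528 against 129 CPM. Of the 16 contractile genes, 8 were at least 2-fold higher in both tubes, and of the 10 dermal sheath genes 5 were, against 1.21% of all 8437 genes with at least 30 UMIs in these cells. The pericyte marker Rgs5 had 1 UMI in these cells of tube 1 and 6 in tube 2 (0.72 and 2.65 CPM), against 16.8 and 23.5 CPM in the other fibroblasts. The whole pericyte and smooth muscle list summed to 562.9 against 374.5 CPM in tube 1 and 519.1 against 363.9 CPM in tube 2, and of its 5 genes with at least 30 UMIs Des and Myh11 were at least 2-fold higher in both. The skeletal muscle list summed to 73.4 against 13.4 CPM and then 95.3 against 15.2 CPM, and Des was its 1 gene with 30 UMIs. The leading genes by fold were Sh3bgr, Nptx2, Npnt, Myh11 and Cnn1, where Npnt is the ligand of the integrin alpha 8 that anchors the arrector pili muscle. Of 23 inflammatory genes 7 were at least 2-fold higher, among them Ptgs2, Cxcl5 and Lcn2. In members with Wnt5a alone, Myh11 had 1 and 4 UMIs.

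**Figure D4:**
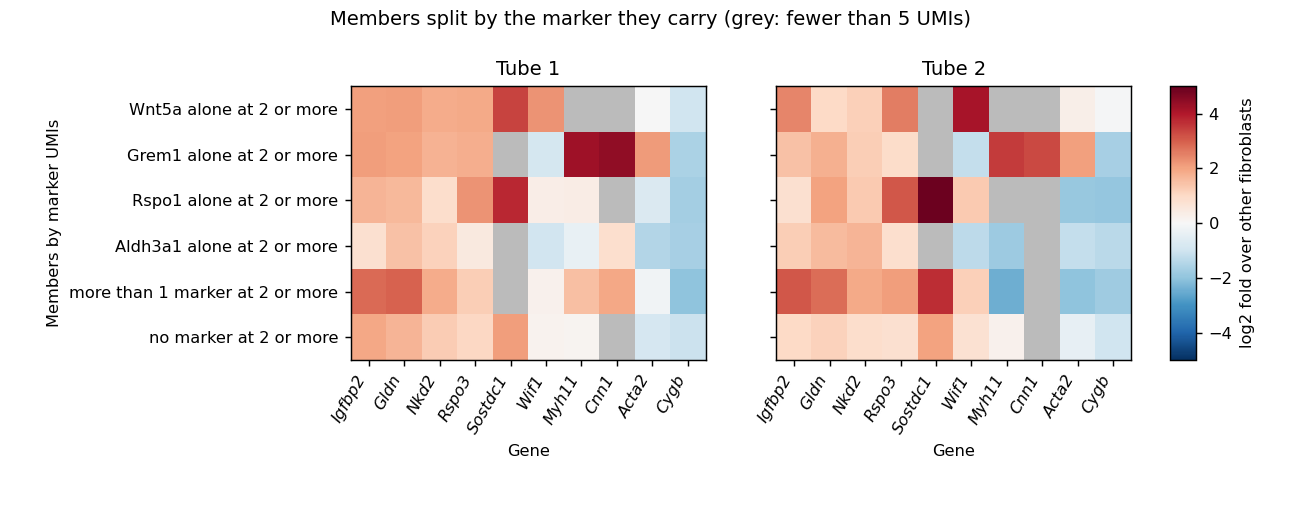
Log2 fold of 10 genes over the other fibroblasts (colour) in members split by the marker that reached 2 UMIs (rows), per tube, grey where a subset had fewer than 5 UMIs of the gene. Myh11, Cnn1 and Acta2 are high in the Grem1 row, Sostdc1 and Rspo3 in the Rspo1 row and Wif1 in the Wnt5a row of both tubes.

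Members with Rspo1 alone were led by Sostdc1 and Rspo3, which are on the WNT lists, and then by Wfdc12, Ackr4 and Gldn, which are not. Of 6 WNT targets with at least 30 UMIs in them, 0 were at least 2-fold higher in both tubes. With Wnt5a alone 4 of 9 were, with Grem1 alone 3 of 9, with Aldh3a1 alone 4 of 10, and without a marker at 2 UMIs 0 of 10. Sostdc1 stood at 16.1 against 1.16 CPM in tube 1 (16 UMIs) and 40.5 against 1.35 CPM in tube 2 (36 UMIs), and Rspo3 at 27.1 against 5.65 CPM and then 55.1 against 6.34 CPM. Wfdc12, a secreted protease inhibitor, stood at 94.3 against 28.1 CPM and then 223 against 16.4 CPM, and the chemokine-scavenging receptor Ackr4 and Gldn followed. Of 6342 genes with enough UMIs, 0.142% were at least 2-fold higher in both tubes. Members with Wnt5a alone were led by the cadherin Cdh6, the transglutaminase F13a1, Wif1, Igfbp2 and Rspo3, out of 0.542% of 7189 genes. Wif1, which binds and holds WNT ligands, stood at 56.9 against 12.01 CPM and then 228 against 13.1 CPM. In members with Grem1 alone it was at 6.48 CPM in tube 1 and 5.73 CPM in tube 2, below the other fibroblasts.

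Members with Aldh3a1 alone were led by Pik3r6, Cib3, Slc27a6, Fgfr4 and Pla2g5, out of 0.623% of 8988 genes. Slc27a6 carries fatty acids, and Fgfr4, a receptor of fibroblast growth factors, stood at 37.0 against 9.96 CPM and then 29.7 against 6.27 CPM. Acta2 stood at 31.1 CPM in tube 1 and 56.8 CPM in tube 2 in these cells, below the other fibroblasts, as it did with Rspo1 alone (51.2 and 34.9 CPM). Igfbp2 was lowest here in tube 1 (233 CPM) and highest, at 944 and 976 CPM, in members with more than 1 marker at 2 or more, which were led by F13a1, Cadps, Cdh6, the hormone gene Stc1 and Vstm2a, out of 1.35% of 9250 genes. Members without a marker at 2 were led by Sostdc1, F13a1, Pik3r6, Stc1 and Ahrr, out of 0.260% of 9628 genes. Ahrr was at least 2-fold higher in both tubes in every subset but that of Rspo1, where it stood at 9.03 and 12.4 CPM on 9 and 11 UMIs. Every subset still held single UMIs of the other markers, for example Wnt5a at 78.5 and 40.6 CPM with Grem1 alone.

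Bulk libraries show the markers by lineage and age, which the pooled cells cannot. In bulk, fewer cells of a type and less RNA per cell cannot be told apart. Libraries are lettered as in their labels and held 4264647 to 17187950 counts in genes, and hemoglobin and other erythroid genes took 43.0% of PNF E18.5 A and 44.6% of PNF P30 A against at most 10.0% of the other 22. Whether libraries of 1 group came from separate animals is not given in the labels, and p-values measure the spread between libraries.

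None of the 4 markers passed edgeR's test of PPF against PNF averaged over the 4 ages (lowest unadjusted p = 0.0743, for Grem1) or DESeq2 (adjusted p of at least 0.304). In edgeR's test 13 of 15557 genes were higher (0.0836%) and 92 lower (0.591%). Wnt5a ranged from 5.11 to 77.6 CPM over the 12 PNF libraries and from 12.3 to 77.7 CPM over the 12 PPF libraries, and the ranges overlapped (log2 fold change 0.60 ± 0.42, adjusted p = 0.599). Grem1 at P30 stood at 300.9, 11.04, 24.9, 35.8, 81.6 and 103 CPM in PPF and at 0 and 21.6 CPM in PNF, and averaged over ages it was 1.63 ± 0.87 higher in PPF on the log2 scale without passing (adjusted p = 0.430). Rspo1 did not pass in edgeR either (adjusted p = 0.582).

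Rspo1 and Aldh3a1 passed the test over age. From E16.5 to P30, averaged over lineages, 64 of 15557 genes were higher (0.411%) and 52 lower (0.334%). Rspo1 stood at 32.3 and 27.5 CPM in PNF and 45.1 and 59.7 CPM in PPF at E16.5, and at 98.2 and 214.5 CPM in PNF and 268, 223, 524, 552, 516 and 568.2 CPM in PPF at P30. All 8 libraries of P30 lay above all 4 of E16.5, and the log2 fold change in edgeR was 2.73 ± 0.58 (adjusted p = 0.0291). It passed in 20 of 24 fits that left out 1 library and failed without any 1 of the 4 E16.5 libraries (adjusted p of 0.129 to 0.221). With libraries C and D, and E and F, of a group summed, it did not pass (2.67 ± 0.64, adjusted p = 0.106).

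Aldh3a1 had 0 counts in the 4 libraries of E16.5, in the 6 of E18.5 and in 5 of 6 at P1, the exception being 1 count in PNF P1 B. At P30 it stood at 3.58, 7.43, 11.3, 6.18, 8.26 and 7.03 CPM in PPF, and at 0 and 7.16 CPM in PNF. Taking 3 counts over the group as the floor at E16.5, the P30 mean was at least 28.2-fold higher in PPF and at least 19.7-fold higher in PNF, where it rests on 1 library. It passed in edgeR (adjusted p = 0.0362) and in 15 of 24 fits without 1 library. It failed without any 1 of the 4 E16.5 libraries, PNF P1 B (adjusted p = 0.0594), PNF P1 D (0.0515), PPF P30 E (0.0545), PPF P30 F (0.0560) or PNF P30 B (1.00), and with those libraries summed (0.125).

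Wnt5a and Grem1 did not pass over age. Wnt5a stood at 22.8 to 61.8 CPM at E16.5 and 5.11 to 77.7 CPM at P30 (log2 fold change -0.49 ± 0.60, adjusted p = 0.761), and Grem1 at 6.83 to 33.1 CPM and 0 to 300.9 CPM (0.60 ± 1.25, adjusted p = 0.886). Pairs C with D and E with F of a group correlated at 0.909 to 0.979 across genes and the other pairs within a group at 0.620 to 0.979.

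**Figure D5:**
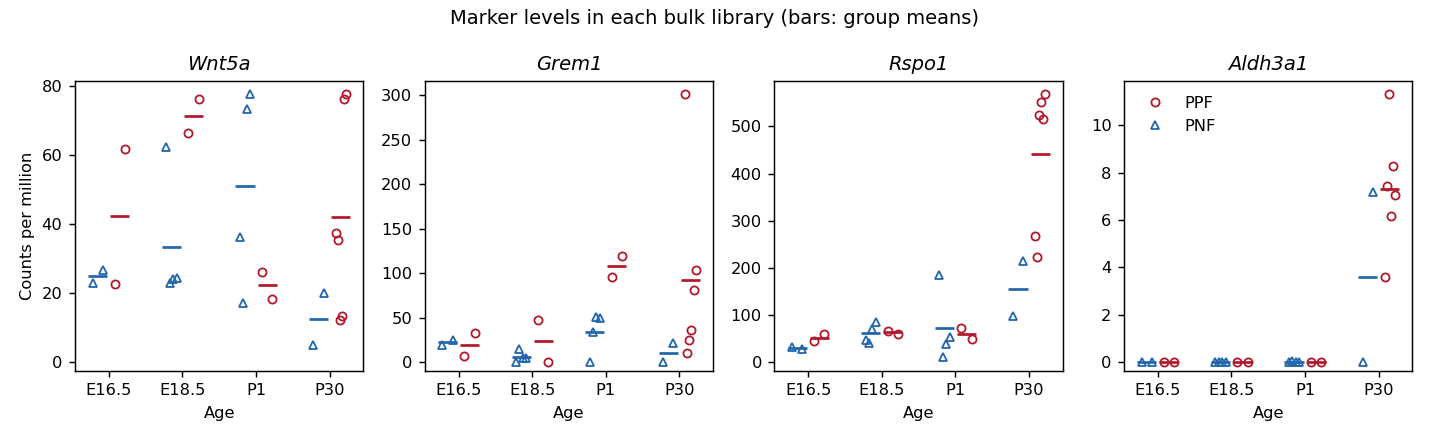
Level of the 4 markers (y axis, CPM) in each bulk library by age (x axis), red circles for PPF and blue triangles for PNF, with bars at the group means. Aldh3a1 is at 0 in all libraries before P30 but 1, and Rspo1 at P30 lies between 98.2 and 568.2 CPM.

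Other genes of the members were read in the same bulk fit. Of the WNT ligands and R-spondins, 2 of 19 tested were higher at P30 than at E16.5 (Rspo1 and Rspo4), of the WNT targets 1 of 11 (Apcdd1) and of the BMP antagonists 1 of 13 (Nbl1). Of the WNT targets, 1 of 11 was higher in PPF (Twist2). Of the named genes, Gpx3 was higher at P30 (log2 fold change 4.63 ± 0.79, adjusted p = 0.00901). Gldn stood at 0.207 and 0.443 CPM in PPF at E16.5, 0 in both PPF libraries of E18.5 and 21.3 to 421 CPM in PPF at P30. It was lower in PPF than in PNF averaged over ages (log2 fold change -4.84 ± 1.16, adjusted p = 0.0576) and higher at P30 (7.11 ± 1.67, adjusted p = 0.0505) without passing either test, and the fitted values rest on groups at or near 0. Igfbp2 ranged from 0.994 to 74.0 CPM in PNF and from 1.498 to 13.9 CPM in PPF (adjusted p = 0.101 between lineages). Prrx1 passed neither test, with a log2 fold change of 0.65 ± 0.53 between lineages (adjusted p = 0.693) and 0.13 ± 0.78 between ages (adjusted p = 0.992). Without PNF P30 B, the age difference of Prrx1 was -5.31. That fit leaves PNF P30 A alone in its group, an erythroid-rich library with 0 counts of Prrx1, so the value cannot be read as a fall with age.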

How the data were processed

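Single-cell UMI counts per gene and barcode were deposited for 2 tubes by the authors as 10x matrices, whose file headers give software version 3.1.0. Seurat 3.1.1 and 3.2 and the mm10 build are named per the submitters' processing notes. Bulk counts per transcript were deposited by the authors as featureCounts tables, per the file headers. They were summed to 34002 genes through GENCODE vM21, in which 82916 of 95883 transcripts matched, and 3.33 to 7.10% of counts were left out.

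Members and gene lists were chosen with earlier results of these data known. UMIs were summed per class and tube and tested with edgeR 4.0.16 (quasi-likelihood, TMM scaling, filterByExpr, tube as a term, Benjamini-Hochberg adjustment), which had 1 residual degree of freedom. The 6 genes of the rule stayed in the totals and out of the test. Bulk groups were fitted together, with 16 residual degrees of freedom. DESeq2 1.42.0 was an alternative, and intervals are exact binomial (scipy 1.17.1). Named genes are the 12 per direction with the largest fold among those called, at least 1.5-fold the same way in both tubes (also against depth-matched cells) and with a mean of 50 CPM or more in the higher class, the 5 leading genes of each subset (30 or more UMIs, 5 or more per tube), the 4 of each signalling list with the smallest p, the 4 markers and Prrx1. Other list genes were named after their values were seen. On simulated single-cell sums, the test recovered 44 of 67 genes set to a 1.5-fold change and 58 of 67 set to 2-fold, and called 7 unchanged genes. These sums were drawn with the spread that the fit had estimated, so they do not measure error from having only 2 tubes. In simulated bulk counts for PPF against PNF, 30 of 100 genes changed 4-fold were recovered, and for P30 against E16.5, 8 of 100. Some genes are not reported here. Doublets were not called. An alternative left out the deepest cells and those with mixed hashtags.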

Additional observations from a re-analysis of the deposited data

Results flagged for a closer look

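The markers and Prrx1 were examined for an outlying library in each group of 4 to 10 libraries. Of 14 such combinations of a gene and a group, 4 held one, and chance gives about 1 in 20 for independent ones. These combinations share libraries and are not independent. Wnt5a stood at 62.2 CPM and Prrx1 at 104.1 CPM in PNF E18.5 A, each far from the other 3 libraries of that group, and erythroid genes took 43.0% of the counts of that library. Their part in these levels was not tested. Grem1 stood at 300.9 CPM in PPF P30 A, far above the other 5 libraries of its group. Aldh3a1 stood at 0.0543 CPM, which is 1 count, in PNF P1 B, while the other 3 libraries of the group had 0.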

How the results depend on the processing

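The 868 genes higher and 606 lower in members became 543 higher (408 lower) with cells thinned to 2000 UMIs, 408 and 295 under a stricter cell filter, 272 and 156 without cells holding 2 or more UMIs of other cell type markers, 506 and 333 without cells with any of 23 defining markers (an alternative chosen after seeing the data), 231 and 153 with DESeq2, and 0 and 0 with no replicate block, where 712 genes had an unadjusted p under 0.05. Without the cells of the 23 markers, S100a3 turned to 0.033 and Prrx1 to -0.0073 on the log2 scale. The share of members was 10.9% and 24.6% at 3 or more marker UMIs, 17.9% and 40.2% under the stricter filter and 13.1% and 18.6% after thinning. Thinned, the mean co-detection fold was 3.46 for Wnt5a, 2.65 for Rspo1 and 3.11 for Aldh3a1. Within single tubes it was 2.97 to 3.15 for Wnt5a, 2.61 to 3.36 for Grem1, 2.43 to 2.50 for Rspo1 and 2.58 to 2.98 for Aldh3a1.

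In bulk, genes higher and lower in PPF numbered 28 and 400 with no filter, 121 and 712 with DESeq2, 33 and 287 without both erythroid-rich libraries, and 0 and 50 with libraries C and D, and E and F, summed (chosen after seeing the data). From E16.5 to P30 the counts were 116 and 92 with no filter, 864 and 412 with DESeq2, 312 and 232 without those libraries and 17 and 7 with libraries summed, and 107 were higher with RLE scaling, which moved the median of all genes from -0.01 to 0.29. Leaving out 1 library gave 0 to 1272 higher and 2 to 207 lower in PPF, and 0 to 204 higher and 0 to 1532 lower at P30. The highest count higher in PPF and the highest count lower at P30 came without PNF P30 B. That fit leaves PNF P30 A alone in its group, a library with erythroid genes at 44.6% of its counts. Library letters did not pair the samples: 13 of 62 same-letter pairs correlated above 0.1 (range -0.21 to 0.18). With the letter as a replicate block, 2 and 26 genes passed between lineages and 16 and 4 between ages, and Rspo1 did not pass over age (adjusted p = 0.133). The lineage difference of Aldh3a1 was -0.039 ± 77.5 in the main fit. All libraries before P30 but 1 had 0 counts of it, so neither its size nor its sign can be read. It was positive under the block (0.11), with DESeq2 (0.32), without PNF P1 B (0.23) and without PNF P30 B (1.94). Over the fits without 1 library it ranged from -0.30 to 1.94. Over those fits the age difference of Wnt5a ranged from -1.15 to 0.019 (without PPF E16.5 B) and that of Grem1 from -4.10 (without PNF P30 B) to 1.45. For Prrx1 it was -0.16 under the block, -5.31 without PNF P30 B and -0.021 without PPF P30 B, with 0.63 as the highest. PNF P30 A, alone in its group without PNF P30 B, had 0 counts of Prrx1, Grem1 and Aldh3a1. The cause of these shifts was not tested. Depth limits single genes in small subsets of members, and the bulk design recovered few simulated 4-fold changes.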

Other observations

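Hashtag rows are not tied to conditions by the labels, so they are given as values. Among eligible cells with exactly 1 tag at 4 or more times its median in the tube (a rule chosen after seeing the data), members made up 16.7 to 33.4% by tag in tube 1 and 29.9 to 67.3% in tube 2. Tag 4 had the highest share in both tubes, with 329 of 984 cells (30.5 to 36.5%) and 177 of 263 cells (61.3 to 72.9%). Tag 3 was lowest in tube 1 (108 of 645) and tag 2 in tube 2 (35 of 117). The median depth of cells with tag 4 was 3432.5 and 6919 UMIs, against 2593 and 4195.5 UMIs in the 11543 and 3128 cells with no tag at that level, and the part of depth in these shares was not tested.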
